A study of Mus musculus with 4 samples.

Results

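Gene expression in DN4 thymocytes was examined for 47 genes of the cell cycle and of DNA replication, taken from a list of cyclins, cyclin-dependent kinases, replication factors, enzymes of nucleotide synthesis, mitotic genes, E2F factors and inhibitors. A gene entered through the array probe sets annotated with exactly 1 gene symbol, and the probe set with the highest mean stood for a gene with several. This gave 46 of the 47 genes, among 19938 genes measured in the same way. Ccnb1, the cyclin B1 gene, had no such probe set and was not analysed here.

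DN4 cells are the last immature thymocytes that carry neither CD4 nor CD8. They were sorted from 4 mice that all carried loxP-flanked Ikzf1 alleles (Ikf/f in the labels), which encode Ikaros, a zinc-finger regulator of lymphocyte development. The 2 Cre+ mice, 129 and 135, also carried Rosa26-CreERT2, in which the broadly active Rosa26 locus drives a Cre that tamoxifen switches on, and the 2 Cre- mice, 131 and 137, lacked it. All 4 mice received tamoxifen intraperitoneally at 50 mg/kg on each of 4 days, and their cells were taken 24 h after the final dose. The age of the mice is not given in the sources used here. The treatment text attached to all 4 arrays names the Cre+ genotype, so the groups follow the titles and the series' design text. The Cre is not restricted to thymocytes, so other cells of the Cre+ mice could recombine too.

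There was 1 array per mouse. Its log2 values ran from 3.14 to 14.4 with medians from 6.85 to 6.88, and having 2 mice per group limits the precision of every value. Ikzf1 was at 12.06 and 11.99 with Cre against 12.07 and 12.11 without (mice 129 and 135, then 131 and 137, in this order throughout). Where its probes lie relative to the floxed part was not analysed here, so these values are no check of the deletion, for which the design text cites western blots. Of 9 measured T lineage markers, 4 lay in the top 5% of genes by array signal, among them Cd3e and Thy1. The 9 ranged from percentile 77.1 (Ptcra) to 99.6 (Thy1), with Cd5 at 79.2. Markers of other cells were mostly dimmer: the 4 natural killer, 5 myeloid and 3 erythroid markers lay at or below percentile 52.4, the 4 B cell markers between 14.3 and 83.8 (Cd79b highest) and the 6 stromal and epithelial markers between 27.7 and 79.3 (Pecam1 highest). Of the 4 markers of the later CD4+CD8+ stage, Cd8b1 stood at percentile 96.1, Ccr9 at 88.9, Cd8a at 66.1 and Cd4 at 56.3. Among probe sets with 1 gene symbol limma called 7 of the 43 markers, against 1.22% of all such probe sets, and 0 over all probe sets. Cd3d, Cd3g, Cd3e, Hes1, Rag1 and the myeloid gene Lyz2 (1.04) were higher in Cre+ cells and Ccr9 (-0.64) was lower. The other 3 of the CD4+CD8+ stage had unadjusted p under 0.05 by limma fitted over all probe sets, against 6.86% of all genes. They differed by -0.61 for Cd8a, -0.27 for Cd8b1 and 0.54 for Cd4. The part of these differences in the cell cycle values was not tested. The 8 measured markers of the earlier DN2 and DN3 stages ranged from percentile 35.3 (Cd44) to 97.2 (Notch1). Their means were higher in Cre+ cells in 4 and lower in 4. Of these 8, Il2ra, which encodes CD25 and marks the preceding DN3 stage, stood at percentile 92.7. It was at 11.07 and 10.71 with Cre against 11.58 and 10.96 without. By Xist and Kdm5d each group held 1 female (129 with Cre, 131 without) and 1 male (135 with Cre, 137 without).

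Thymocytes that have made a functional T cell receptor beta chain signal through the pre-TCR and then divide rapidly through the DN4 stage before they become small resting cells with CD4 and CD8. In a dividing cell, D-type cyclins with Cdk4 and Cdk6 phosphorylate the retinoblastoma protein and release E2F factors, which switch on cyclin E and the genes of DNA replication. Cyclin A, cyclin B and Cdk1 then carry the cell through G2 into mitosis. Late cell cycle promoters are targets of FOXM1 and the B-MYB complex, and of the repressive DREAM complex. The cyclin D3 gene is known to be needed for the expansion of immature thymocytes.

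The cell cycle genes were among the brightest on the arrays. All 46 lay between percentile 81.7 and percentile 99.8 of the 19938 genes by mean log2 value, with a median of 95.2, and 38 of them were in the top 10%. For comparison, 22 measured genes of other tissues, such as Alb, Myh6 and Scgb1a1, had a median percentile of 28.2. The highest of them, Mbp, stood at 74.1 and the next, Apoa1, at 52.8. The 46 members were thus all brighter than these 22 genes. This did not hold for 103 other genes of the cell cycle described further on, which ranged from percentile 48.3 to 98.9 with a median of 86.5, and of which 15 lay below Mbp. Probe sets differ in how brightly they hybridise, so that a percentile ranks array signal and not the number of transcripts.

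**Figure D1:**
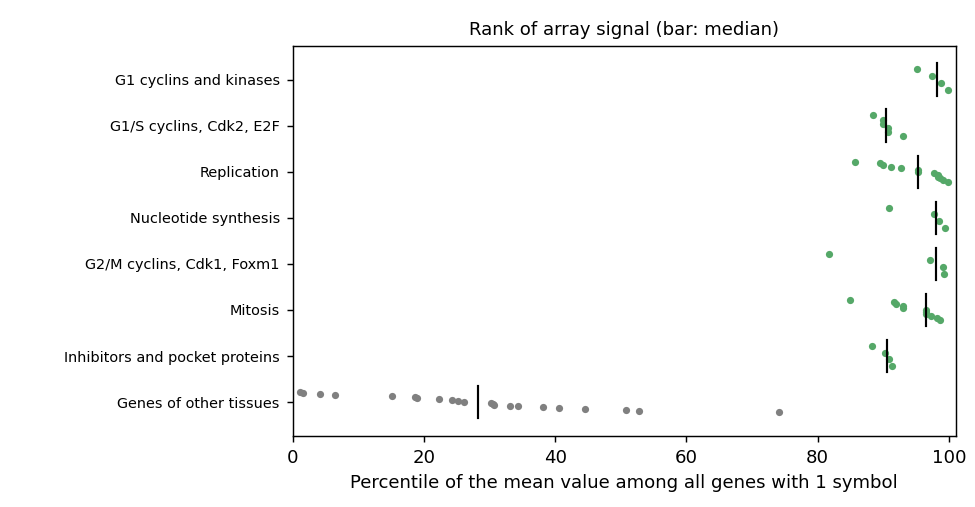
Each point is a gene, placed by the percentile of its mean log2 value over the 4 mice among 19938 genes (horizontal axis), in rows by role, and each bar is the median of a row. The 46 cell cycle genes lie at or above percentile 81.7, and the 22 genes of other tissues lie between 1.12 and 74.1.

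Cdk4, the kinase partner of the D cyclins, stood at percentile 99.8 and Pcna, the sliding clamp of the replication fork, also at 99.8. Rrm1, the large subunit of ribonucleotide reductase, was at 99.4, Ccna2, the cyclin A2 gene, at 99.2, Ccnb2, the cyclin B2 gene, and Mcm7, a subunit of the replicative helicase, both at 99.1. These 6 genes made up all members in the top 1%. The lowest percentiles were 81.7 for Foxm1, which encodes the transcription factor of late cell cycle genes, 85.0 for Birc5, which encodes survivin, a subunit of the chromosomal passenger complex, and 85.7 for Cdc6, which loads the helicase onto origins. By role the median percentile was 98.1 for the G1 cyclins and kinases, for nucleotide synthesis and for the G2/M cyclins with Cdk1 and Foxm1. It was 96.4 for mitosis, 95.4 for replication, 90.6 for the inhibitors and pocket proteins and 90.4 for cyclin E, Cdk2 and the E2F factors.

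Promoter sequence is a feature that the choice of genes did not use and is described here without a test. Promoter windows of 250 bases before to 50 bases after the start site, from RefSeq on build GRCm38.p6, were found for 38 of the 46 genes, of which 4 had 2 windows. Both strands were searched for the E2F letters TTTGGCGC or TTTCGCGC, for the letters TTTGAA or TTCGAA of the cell cycle genes homology region (CHR), to which the DREAM and B-MYB complexes bind, and for CCAAT, the box bound by NF-Y. A gene counted where any of its windows held the letters, and letters of different motifs overlapped in 1 of the 42 windows.

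E2F letters were present in 6 of 11 replication genes (Cdt1, Mcm3, Mcm5, Mcm6, Mcm7 and Pola1), against 0.929% of 27025 genes with a window. In the same phase they were present in 1 of 5 genes of cyclin E, Cdk2 and the E2F factors (E2f2) and in 0 of 4 nucleotide synthesis genes. None of the 10 mitotic genes with a window held them, and elsewhere Cdk1 and Rbl1 did. CHR letters were present in 9 of those 10 mitotic genes and in Ccnb2 and Cdk1, against 21.7% of all genes and 2 of 11 replication genes. Birc5 was the mitotic gene without them. CCAAT stood in 9 of the 10 mitotic genes and in 9 of the 11 replication genes, against 41.1% of all genes. Such matches are letters in a window and not shown to be bound sites.

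Shown next are 100 bases of the window around the E2F letters of 3 replication genes, with those letters in capitals, because they illustrate the motif of this role. In Mcm5 the motif on one strand overlaps that on the other.
Mcm5, chr8:75109314-75109413, + strand: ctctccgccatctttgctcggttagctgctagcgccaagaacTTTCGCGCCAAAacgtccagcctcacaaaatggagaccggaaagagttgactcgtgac
Mcm6, chr1:128359706-128359805, - strand: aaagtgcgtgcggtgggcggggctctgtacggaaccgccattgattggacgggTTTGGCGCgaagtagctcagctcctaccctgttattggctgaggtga
Pola1, chrX:93632240-93632339, - strand: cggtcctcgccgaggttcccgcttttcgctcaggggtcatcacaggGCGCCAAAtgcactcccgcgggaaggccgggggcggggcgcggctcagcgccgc

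The same length is shown for 5 G2/M genes with CHR letters and a CCAAT box in the 100 bases, where capitals mark either motif on either strand. They show an arrangement found in genes as different as Cdk1, the mitotic kinase, and Kif11, a spindle motor. In Ccnb2 and Bub1b the 100 bases around the CHR letters held no CCAAT box. Only genes with CHR letters before the start site were considered for display.
Cdk1, chr10:69352913-69353012, - strand: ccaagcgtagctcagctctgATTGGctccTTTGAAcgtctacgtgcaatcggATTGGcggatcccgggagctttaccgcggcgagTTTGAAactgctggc
Mki67, chr7:135716425-135716524, - strand: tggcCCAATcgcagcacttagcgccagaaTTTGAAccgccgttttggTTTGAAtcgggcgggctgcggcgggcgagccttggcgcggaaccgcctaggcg
Top2a, chr11:99024190-99024289, - strand: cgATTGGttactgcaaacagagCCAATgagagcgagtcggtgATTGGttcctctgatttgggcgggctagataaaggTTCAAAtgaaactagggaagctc
Cdc20, chr4:118437344-118437443, - strand: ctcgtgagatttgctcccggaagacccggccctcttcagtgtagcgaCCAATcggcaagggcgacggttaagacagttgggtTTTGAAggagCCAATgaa
Kif11, chr19:37376282-37376381, + strand: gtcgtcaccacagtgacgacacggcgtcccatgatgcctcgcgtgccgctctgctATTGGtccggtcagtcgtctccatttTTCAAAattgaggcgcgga

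The main comparison asked whether cell cycle genes differed between DN4 cells of the Cre+ and of the Cre- mice. No member passed the test, and all 46 differences, Cre+ minus Cre- on the log2 scale, lay between -0.23 and 0.14. In 21 genes the mean was higher in Cre+ cells and in 25 it was lower, with a median of -0.0068, while over all 19938 genes 45.9% had a higher mean and the median was -0.0087. Taken 1 gene at a time, the 95% limma interval of each member excluded a 1.5-fold or larger difference in array signal in either direction. That of 34 members excluded 1.2-fold. The farthest bound was 1.39-fold, for E2f8. These intervals rest on 2 mice per group, do not cover the members jointly and describe array signal, not the number of transcripts.

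Tested with limma over all 35556 probe sets at an adjusted p of 0.05, 0 of 46 members and 0.0% of probe sets passed, and the smallest was 0.664, for Tk1. In a separate limma fit of the 21789 probe sets with exactly 1 gene symbol, 1.22% passed that threshold. Again 0 of the 46 members did (smallest adjusted p = 0.388, for E2f8). In the fit over all probe sets 2 members had an unadjusted p under 0.05, Cdk6 and Tk1. This is 4.35% against 6.86% of all genes and 6.63% of all probe sets. In the separate fit Ccne1, E2f8 and Tyms were also under 0.05 (unadjusted p = 0.034, 0.025 and 0.046 by limma). The share of all genes was not counted for that fit. The 2 Cre+ mice and the 2 Cre- mice did not overlap in 16 members, 34.8% against 36.4% of all genes. Cre+ lay above in 9 of the 46 (19.6%, against 16.1% of all genes) and below in 7 (15.2%, against 20.3%), so the shares were near the background. In 37 of the 46 members the difference between the groups was smaller than the larger of the gaps between 2 mice of 1 group. The same held in 14943 of all 19938 genes. In bulk RNA a smaller share of cells in a phase cannot be told apart from less RNA per cell, here and below.

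**Figure D2:**
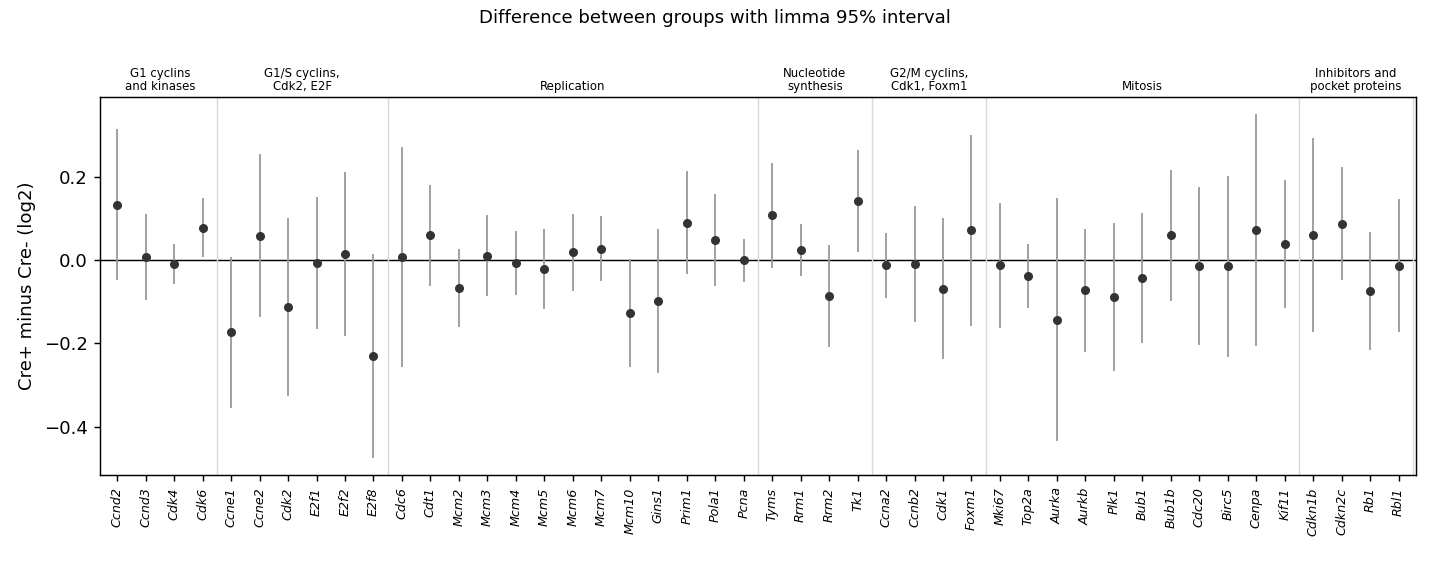
Points are the differences Cre+ minus Cre- in log2 units for 46 genes, and lines are the 95% limma intervals for each gene alone, with 2 mice per group. The points lie between -0.23 and 0.14, and the intervals of 44 genes include 0, the others being Cdk6 and Tk1.

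G1 cyclins and kinases, which act before the commitment to replicate, differed by a median of 0.04 (4 genes). Cdk6, a kinase partner of the D cyclins, was at 12.59 and 12.56 with Cre against 12.49 and 12.51 without. The groups did not overlap, and the difference was 0.08 (SE 0.03, unadjusted p = 0.035, adjusted p = 0.698 by limma). Ccnd2, the cyclin D2 gene, was at 11.62 and 11.44 against 11.37 and 11.43. Both Cre+ mice lay above both Cre- mice, mouse 129 the farthest, and the difference of 0.13 (SE 0.07) was 0.04 without it. Cdk4 was at 13.49 and 13.48 against 13.48 and 13.50, a difference of -0.0082 (SE 0.02). Ccnd3, the cyclin D3 gene, differed by 0.0089 (95% interval -0.09 to 0.11).

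Among cyclin E, Cdk2 and the E2F factors, which carry the cell into S phase, 4 of 6 genes had lower means in Cre+ cells (median -0.06). E2f8, an atypical E2F that represses E2F targets late in S phase, gave the difference of largest size among all members, -0.23 (SE 0.10, adjusted p = 0.775 by limma). It was at 10.54 and 10.72 with Cre against 10.76 and 10.95 without, without overlap. The difference was -0.23 in the female pair and -0.23 in the male pair, and it ranged from -0.32 to -0.14 when each mouse was left out. Ccne1, the cyclin E1 gene, was at 10.40 and 10.55 against 10.66 and 10.64, again without overlap (-0.17, SE 0.07, adjusted p = 0.766 by limma). Cdk2, the kinase partner of cyclins E and A, was at 10.95 and 11.17 against 11.15 and 11.20. Its low value was that of mouse 129, and its difference was -0.11 (SE 0.08). Ccne2, E2f1 and E2f2 differed by 0.06, -0.0064 and 0.02.

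The 13 replication genes stayed close to 0, with 7 higher and 6 lower means and a median of 0.0085. The 6 subunits of the MCM2-7 helicase, which is loaded at origins and unwinds DNA, differed by between -0.07 and 0.03. Mcm2 was at 12.30 and 12.23 with Cre against 12.32 and 12.34 without, which did not overlap (-0.07, SE 0.04). Mcm4 was at 12.12 and 12.11 against 12.13 and 12.12, and its 95% interval ran from -0.08 to 0.07. Mcm10, which helps to activate the helicase, was at 10.61 and 10.63 against 10.76 and 10.73. This gap between the groups (-0.13, SE 0.05, adjusted p = 0.764 by limma) was seen in both sexes, with -0.15 in the female pair and -0.10 in the male pair. Prim1, the primase subunit that makes RNA primers, was at 10.90 and 10.94 against 10.82 and 10.83, a difference of 0.09 (SE 0.05) without overlap.

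Of the other replication genes, the helicase subunit Gins1 differed by -0.10 (SE 0.07), the licensing factor Cdt1 by 0.06 (SE 0.05) and Pola1, the catalytic subunit of polymerase alpha, by 0.05 (SE 0.04). Cdc6 differed by 0.0085 (SE 0.10). Mcm3, Mcm5, Mcm6 and Mcm7 differed by 0.01, -0.02, 0.02 and 0.03. Pcna was at 13.39 and 13.40 against 13.38 and 13.41, and its other probe set gave values within 0.01 of these.

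Of the 4 nucleotide synthesis genes, none showed overlap between the groups, 3 with higher values in Cre+ cells and 1 with lower, where 36.4% of all genes showed none (16.1% above and 20.3% below). Tk1, thymidine kinase of the salvage pathway, was at 10.94 and 10.91 with Cre against 10.78 and 10.78 without. The difference was 0.14 (SE 0.05, unadjusted p = 0.0296, adjusted p = 0.664 by limma), and 0.14 in its other probe set. Tyms, thymidylate synthase, was at 12.09 and 12.21 against 12.05 and 12.04, with mouse 135 above the rest (0.11, SE 0.05). Rrm2, the small subunit of ribonucleotide reductase, was at 12.27 and 12.37 against 12.44 and 12.37. Its groups touched to within rounding, and the difference was -0.09 (SE 0.05). Rrm1 differed by 0.02 (95% interval -0.04 to 0.09).

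**Figure D3:**
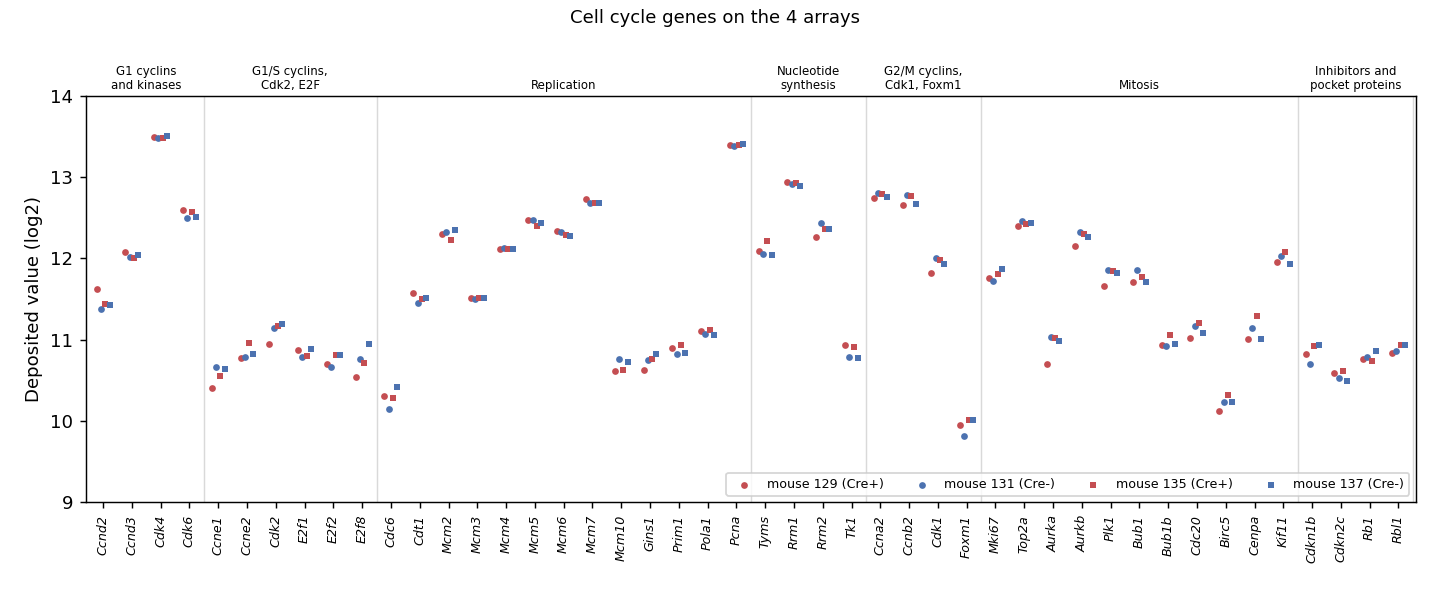
Each column is a gene and each point the deposited log2 value of 1 mouse, red for Cre+ and blue for Cre-, circles for the female mice and squares for the male mice. The vertical axis starts at 9, and in Cdk4, Mcm4 and Pcna the 4 points nearly coincide, while in Aurka mouse 129 lies below the other 3.

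G2/M genes had lower means in Cre+ cells in 11 of 15 cases (73.3%, against 54.1% of all genes), with a median of -0.01. The groups did not overlap in 1 of the 15, Top2a, against 36.4% of all genes. Aurka, the centrosomal kinase Aurora A, was at 10.70 and 11.03 with Cre against 11.03 and 10.98 without. Plk1, the polo-like kinase that drives mitotic entry, was at 11.66 and 11.84 against 11.86 and 11.82. Aurkb, Aurora B of the chromosomal passenger complex, was at 12.15 and 12.30 against 12.33 and 12.26. In all 3 kinase genes mouse 129 was low and the other 3 mice lay close together. The differences were -0.14 (SE 0.11), -0.09 (SE 0.07) and -0.07 (SE 0.06), none past the threshold, and without mouse 129 they were 0.02, 0.0040 and -0.00022.

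Cdk1 was also lowest in mouse 129, at 11.81 and 11.98 with Cre against 12.00 and 11.93 without (-0.07, SE 0.07). Ccna2 was at 12.74 and 12.79 against 12.80 and 12.76 (-0.01, SE 0.03). Foxm1 was at 9.95 and 10.02 against 9.81 and 10.01, with mouse 131 lowest (0.07, SE 0.09). Ccnb2 differed by -0.0084 (SE 0.05). Mki67, the gene of the proliferation marker Ki-67, differed by -0.01 (95% interval -0.16 to 0.14). Top2a, topoisomerase II alpha, differed by -0.04 (SE 0.03), and by 0.05 (SE 0.12) in a second, dim probe set.

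Of the checkpoint and spindle genes, Bub1 and Bub1b, kinases of the spindle checkpoint, differed by -0.04 and 0.06. Cdc20, an activator of the anaphase-promoting complex, and Birc5 each differed by -0.01. Cenpa, the centromeric histone variant, differed by 0.07 (SE 0.11) and Kif11 by 0.04 (SE 0.06).

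In 14 of the 15 G2/M genes the difference between the groups was smaller than the larger gap within a group, as in 14943 of all 19938 genes. Measured from each gene's mean over the 4 mice, the median of the 15 genes was -0.06 in mouse 129, 0.04 in mouse 131, 0.05 in mouse 135 and -0.0027 in mouse 137. Mouse 129 was below the mean in 14 of 15 genes and the lowest mouse in 10. The female pair differed by a median of -0.12 and the male pair by 0.05, and in 3 of 15 genes the sign was the same in both pairs. In the 23 genes of G1/S and S phase these medians were 0.02 and -0.0041, and the sign was shared in 16. Over all 19938 genes it was shared in 10740. With 1 mouse of each sex in a group, the difference between the pairs was not tested. Without mouse 129 the median of the G2/M genes was 0.02, and without mouse 135 it was -0.07.

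**Figure D4:**
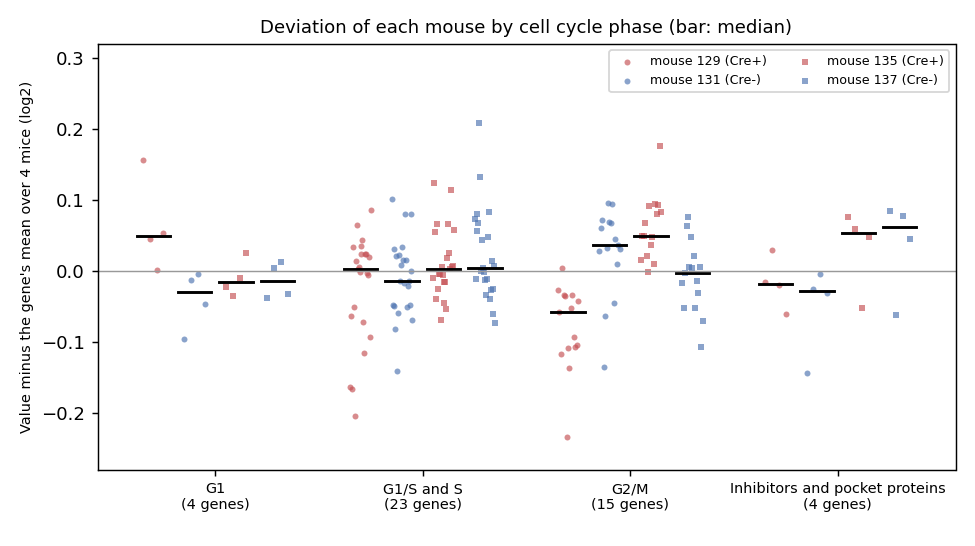
Each point is the log2 value of a gene in 1 mouse minus the mean of that gene over the 4 mice, in columns by phase and mouse, and bars are medians. For the 15 G2/M genes the bar of mouse 129 is at -0.06 and that of mouse 135 at 0.05, while the 4 bars of the 23 G1/S and S genes lie between -0.01 and 0.0033.

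Among the 15 members mouse 131 was the highest in 8 and mouse 135 in 6. In 49 other genes of G2/M and mitosis mouse 129 was the lowest in 28 of them and mouse 135 the highest in 33, which is 57.1% and 67.3%, against 26.4% and 19.3% of all genes. Low values of mouse 129 were not particular to G2/M: it was the lowest in 4 of the 6 genes of cyclin E, Cdk2 and the E2F factors, in 8 of 15 other G1 and G1/S regulators and in 15 of 34 other replication factors, but in 2 of 13 replication members. These genes were measured on the same arrays as the members and are no independent replicates. Mouse 129 was also the highest of the 4 mice in all 9 measured T lineage markers, and its part in the low G2/M values of that mouse was not tested.

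Inhibitors and pocket proteins, which hold the cycle in check, differed by a median of 0.02, with 2 genes higher and 2 lower. Cdkn2c, which encodes p18, an inhibitor of Cdk4 and Cdk6, was at 10.59 and 10.62 with Cre against 10.53 and 10.50 without. The groups did not overlap, and the difference was 0.09 (SE 0.05, adjusted p = 0.929 by limma). Rb1, the retinoblastoma gene, was at 10.77 and 10.73 against 10.78 and 10.86, also without overlap (-0.07, SE 0.06). Cdkn1b, which encodes the Cdk inhibitor p27, was at 10.83 and 10.92 against 10.70 and 10.93. Its difference of 0.06 (SE 0.09) was -0.05 without mouse 131, and its dimmer probe set differed by 0.04 (SE 0.16). Rbl1, the pocket protein p107, differed by -0.01 (SE 0.06).

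Differences between the groups are given by promoter letters without a test. The 9 members with E2F letters differed by a median of 0.02 (from -0.07 to 0.06) and the 29 with a window but without them by -0.0082. The 15 members with CHR letters differed by a median of -0.01 and the 23 without by 0.0089.

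A wider list of 105 other cell cycle genes, of which 103 were measured, gave 0 genes past the threshold by limma over all probe sets and 0 among probe sets with 1 gene symbol. Means were higher in 46 and lower in 57, with a median of -0.01. In the fit over all probe sets 5 genes had an unadjusted p under 0.05, 4.85% against 6.86% of all genes. The groups did not overlap in 33 of the 103 genes, against 36.4% of all genes.

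The 34 replication factors included 23 with a lower mean in Cre+ cells (67.6%, against 54.1% of all genes), with a median of -0.03. Dctd, the deoxycytidylate deaminase of thymidylate supply, was at 11.09 and 11.25 with Cre against 11.39 and 11.43 without (-0.24, SE 0.06, adjusted p = 0.544 by limma). Orc6, a subunit of the origin recognition complex, was at 10.62 and 10.74 against 10.82 and 11.07 (-0.26, SE 0.10). Pold2, an accessory subunit of polymerase delta, was at 11.99 and 11.93 against 12.07 and 12.07 (-0.11, SE 0.04). These 3 genes had the smallest p of the role, and in them both Cre+ mice lay below both Cre- mice. The same held in 12 of the 34, with 4 above, against 20.3% and 16.1% of all genes.

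Among 15 other G1 and G1/S regulators the median was -0.0068. Ccnd1, the cyclin D1 gene, was at 7.76 and 7.73 against 7.40 and 7.43, a difference of 0.33 (SE 0.09, unadjusted p = 0.0162, adjusted p = 0.553 by limma). It was dim, at percentile 55.7, below Mbp but above the rest of the genes of other tissues, of which Apoa1 was highest at 52.8. Tfdp1 and Tfdp2, the DNA-binding partners of E2F factors, differed in opposite directions, by -0.13 (SE 0.05) and 0.26 (SE 0.12). Neither passed the threshold.

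The 49 other G2/M and mitotic genes had a median of 0.02, with 28 higher and 21 lower means in Cre+ cells (57.1% higher, against 45.9% of all genes). Melk, a kinase gene expressed in mitosis, was at 9.82 and 9.999 against 9.72 and 9.53 (0.29, SE 0.10, adjusted p = 0.723 by limma). Espl1, the gene of separase, differed by -0.18 (SE 0.08) and Ect2, an exchange factor needed for cytokinesis, by -0.14 (SE 0.08). Pttg1, the gene of securin, chosen after its values were seen, was at 9.50 and 8.72 with Cre against 9.82 and 8.98 without. Both female mice lay above both male mice, and within each sex the Cre+ mouse was lower, with differences of -0.32 in the female pair and -0.26 in the male pair (group difference -0.29, SE 0.37).

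Of the other inhibitors 5 were measured. Cdkn2a, Cdkn2b and Cdkn1c, which encode the inhibitors p16 with p19ARF, p15 and p57, stood at percentiles 48.3, 49.4 and 50.3, within the range of the genes of other tissues, and differed by -0.02, -0.04 and -0.11. Cdkn2d, which encodes p19 of the INK4 family, stood at percentile 62.7 and differed by -0.14 (SE 0.09). Rbl2, the pocket protein p130, stood at 76.4 and differed by -0.01. Cdkn1a was not analysed here.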

How the data were processed

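DN4 RNA was labelled in 2 cycles and hybridised to Affymetrix mouse gene arrays. The values deposited by the authors are on a log2 scale, as read from their range, and come from RMA per the submitters' processing notes. Its version is not given here. They were used as deposited, with 0 sample columns unused.

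Of 35556 probe sets, 21789 had 1 gene symbol in the platform annotation, 1621 had several and 12146 were not listed. limma 3.58.1 in R 4.3.3 (lmFit, eBayes with an intensity trend) compared Cre+ minus Cre- for every probe set, with Benjamini-Hochberg adjustment and a threshold of 0.05. Results among probe sets with 1 gene symbol come from a separate fit of those probe sets alone, so their unadjusted p differ too. Residual degrees of freedom were 2 and prior ones 2.99 in the fit over all probe sets. Only 3 splits of 2 against 2 mice exist, so an exact two-sided permutation p cannot go below 0.333. Intervals are at 95% per gene.

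The fit was tested on simulated data: among 35556 independent probe sets with 200 changed, 64% of the 2-fold and 94% of the 4-fold changes were found in this comparison, beside a mean of 8.8 false calls (5 runs). Members and lists were chosen with earlier results of these data known. All members are named, with values per mouse for the 3 of smallest p in each role, and likewise 3 other cell cycle genes per role are named. Ccnd3, Mcm4, Pcna, Pttg1, Cdkn2a and Rbl2, and promoters shown as examples, fall outside that rule. Promoter windows were matched by symbol. Alternatives varied the probe sets tested, the scaling, the variance prior, array weights, sex as a block, the probe set per gene and the mice included.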

Additional observations from a re-analysis of the deposited data

Results flagged for a closer look

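The median difference, Cre+ minus Cre- on the log2 scale, had opposite signs in the female pair of mice (129 and 131) and in the male pair (135 and 137) for the members as a whole and for each phase. It was -0.0095 in the female pair and 0.0036 in the male pair over all 46 members. For the G2/M genes it was -0.12 and 0.05. For the G1 genes it was 0.078 and -0.0040, for the G1/S and S genes 0.0195 and -0.0041, and for the inhibitors and pocket proteins 0.019 and -0.0028. Outside G2/M the male-pair medians were thus no larger than 0.0041 in size. Gene by gene, the sign was the same in both pairs in 23 of 46 members, against 10740 of all 19938 genes. With 1 mouse of each sex in a group, the differences between the pairs were not tested. No single member had opposite differences of at least 0.2 in both pairs.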

How the results depend on the processing

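No member passed the threshold under any of the 13 alternatives, where the smallest adjusted p by limma was 0.364 (E2f8), against 0.664 for Tk1 in the comparison as reported. Over all probe sets 0 passed, against 10 with arrays centred, 80 among probe sets above the median and 266 among those with 1 gene symbol. In 19 of 46 members the direction held under every alternative run, and in 27 it changed under at least 1. The cause was not tested. Centring gave Ccnb2 0.0015, Cdk4 0.0016, E2f1 0.0035, Mcm4 0.0028, Pcna 0.0095 and a G1/S and S median of 0.018. Quantile normalization gave Mcm4 0.0043 and Pcna 0.00050, and averaging probe sets gave Pcna 0.0012 and Top2a 0.0063. Ranked among all probe sets the members' median percentile was 93.7. Leaving out each mouse in turn gave a median of -0.0020 to 0.014 for G1/S and S, -0.053 to 0.072 for the inhibitors and -0.058 to 0.023 for other cell cycle genes, with the lone mouse of a group assumed to vary like the others. Ranges of the members whose direction changed were -0.31 to 0.020 for Aurka, -0.11 to 0.085 for Birc5, -0.12 to 0.030 for Bub1, -0.0040 to 0.12 for Bub1b, -0.035 to 0.011 for Ccna2, -0.064 to 0.048 for Ccnb2, -0.031 to 0.049 for Ccnd3, -0.034 to 0.15 for Ccne2, -0.10 to 0.073 for Cdc20, -0.13 to 0.15 for Cdc6, -0.15 to 0.014 for Cdk1, -0.017 to 0.00075 for Cdk4, -0.054 to 0.17 for Cdkn1b. They were further -0.068 to 0.21 for Cenpa, -0.059 to 0.046 for E2f1, -0.059 to 0.089 for E2f2, -0.027 to 0.17 for Foxm1, -0.023 to 0.10 for Kif11, -0.055 to 0.014 for Mcm5, -0.0066 to 0.045 for Mcm6, -0.0011 to 0.058 for Mcm7, -0.082 to 0.057 for Mki67, -0.015 to 0.014 for Pcna, -0.18 to 0.0040 for Plk1, -0.068 to 0.040 for Rbl1, and -0.094 to 0.0077 for Cdkn2b, which is no member. No paired analysis by replicate number was possible because the labels give the groups no shared numbers. Pairing by sex, read from transcripts, was fitted as a block and changed no call (0 members past the threshold, smallest adjusted p by limma 0.451, for E2f8).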
